A study of Mus musculus with 2 samples.

Results

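The transcripts of 9 lineage transcription factors of myeloid cells, Spi1, Cebpa, Cebpb, Cebpe, Irf4, Irf8, Klf4, Maf and Batf3, were followed in immune cells of 143B tumors. They were chosen by symbol among the 32285 genes of the deposited matrices, and no level of theirs enters the rule. 143B is a human osteosarcoma line, and the tumors were grown under the skin of female nude mice, which lack mature T cells and were 4 weeks old at inoculation. Mice received 10 mg/kg of a human IgG1 isotype (control IgG) or 10 mg/kg of anti-CD3L1, an antibody against the surface protein CD3L1, every 3 days for 4 doses. CD45-positive cells were collected on beads and sequenced as 1 droplet library per group. Each library pooled 3 tumors, and cells cannot be traced back to a tumor, so the difference between the libraries has no replicates and no p-value is given. All intervals below describe counting error alone.

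These factors bind DNA and set which genes a blood cell lineage uses. PU.1, encoded by Spi1, and the C/EBP family open the myeloid program, in which C/EBPα acts in progenitors, C/EBPε drives late granule genes of neutrophils and C/EBPβ is induced by inflammatory cytokines. IRF8 and KLF4 are needed for monocytes, IRF8 with BATF3 makes the cross-presenting dendritic cells (cDC1), IRF4 serves the other conventional dendritic cells (cDC2) and alternatively activated macrophages, and c-Maf, encoded by Maf, marks resident-type macrophages.

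The libraries held 74850604 UMIs (unique molecular identifiers, each standing for 1 captured RNA molecule) under control IgG and 108246719 UMIs under anti-CD3L1. After filtering, 8557 and 11269 cells were kept, with medians of 5526 and 8267 UMIs, and 26 barcodes were shared by both libraries. Cells were placed in classes by marker genes that include none of the 9 factors. In the control IgG library 5488 cells were neutrophil-like, 785 monocyte-like, 323 macrophage-like and 149 NK-like, and every other class held under 50 cells. The anti-CD3L1 library held 507, 2389, 3383 and 837 cells of these classes, and also 225 cDC2-like, 166 mature dendritic cell (mature DC)-like, 158 plasmacytoid dendritic cell (pDC)-like, 128 cDC1-like, 80 innate lymphoid cell (ILC)-like and 51 B-like cells. Cells that met no class, 1258 and 2921, or several classes, 479 and 378, were left out. The depth of a class differed between the libraries, from a median of 4651 to 2268 UMIs in neutrophil-like cells, 12121 to 7937 in monocyte-like cells, 13810 to 10097 in macrophage-like cells and 10964 to 8788 in NK-like cells. The median share of mitochondrial UMIs over all kept cells was 0.350% under control IgG and 1.40% under anti-CD3L1, and 559 and 1623 barcodes were removed for a high share. Within classes it ran the other way, at 0.251% and 0.158% in neutrophil-like, 1.87% and 1.32% in monocyte-like, 1.71% and 1.37% in macrophage-like and 1.86% and 1.67% in NK-like cells, and its part in the differences between the libraries was not tested.

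Promoter sequences of 6 of the 9 genes were found in the RefSeq table of GRCm38.p6, each running from 250 bases before a start site to 50 after it. The submitters' notes name GRCm39, so these coordinates are not those of the counts. Irf8 and Cebpb are shown because their levels ran against each other across cell classes, and Irf4 because its ratio between the libraries was the largest of the 9 in macrophage-like cells. The capitals mark interferon-gamma activated sites (GAS, TTCNNNGAA) in Irf8, CRE cores (TGACG) and a match to TATAAA in Cebpb, and the TATA box (TATAAA) in Irf4. Each was searched on both strands.
Irf8, chr8:120736108-120736407, plus strand: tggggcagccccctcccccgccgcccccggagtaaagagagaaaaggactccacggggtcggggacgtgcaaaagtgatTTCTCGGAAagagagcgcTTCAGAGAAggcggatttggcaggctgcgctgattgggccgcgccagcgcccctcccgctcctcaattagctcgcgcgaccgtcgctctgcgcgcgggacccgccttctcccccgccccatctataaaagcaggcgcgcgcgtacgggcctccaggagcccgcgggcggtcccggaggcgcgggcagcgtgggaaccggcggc
Cebpb, chr2:167688665-167688964, plus strand: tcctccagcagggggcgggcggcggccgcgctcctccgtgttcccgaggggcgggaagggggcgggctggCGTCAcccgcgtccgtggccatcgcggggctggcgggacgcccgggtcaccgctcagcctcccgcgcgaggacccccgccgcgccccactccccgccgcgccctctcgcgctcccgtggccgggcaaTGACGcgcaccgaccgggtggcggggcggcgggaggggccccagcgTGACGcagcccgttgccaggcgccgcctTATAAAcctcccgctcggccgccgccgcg
Irf4, chr13:30748983-30749282, plus strand: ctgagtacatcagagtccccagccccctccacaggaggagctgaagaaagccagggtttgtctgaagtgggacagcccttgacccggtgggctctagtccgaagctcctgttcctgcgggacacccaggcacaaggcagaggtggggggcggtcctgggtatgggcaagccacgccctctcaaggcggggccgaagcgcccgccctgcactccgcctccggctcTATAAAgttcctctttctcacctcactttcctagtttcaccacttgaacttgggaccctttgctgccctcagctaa
The Irf8 window held 2 GAS matches, starting 171 and 153 bases before the start site, and Batf3 held 1, starting 239 bases before it. GAS matches occurred in 8.30% of all 32851 promoter windows. Cebpb held 3 CRE cores, a match present in 20.8% of all windows, and its TATAAA began 21 bases after the listed start site. Irf4 held TATAAA starting 26 bases before its start site, and TATAAA was present in 13.6% of windows, among them Irf8, 31 bases before its start site, and Cebpa, 30 bases before. An ETS core (GAGGAA), the type of site PU.1 binds and present in 28.3% of windows, was found in Irf4, 19 bases before the start site, and in Batf3, 153 bases before. Klf4 held 1 CRE core, 232 bases before its start site. A C/EBP motif (TTGCNNAA), present in 10.8% of windows, was in none of the 7 windows of these 6 genes, Irf8 having 2.

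To see where each factor was transcribed, its UMIs in all cells of a class were added up and scaled to CPM, counts relative to an equal total in every class, with exact Poisson 95% intervals. Only classes with at least 50 cells in a library were ranked. Spi1 (ENSMUSG00000002111) was the most even of the 9 across the myeloid classes. Under control IgG its level was 643 CPM (627 to 659) in monocyte-like, 613 CPM (605 to 622) in neutrophil-like and 589.8 CPM (568 to 613) in macrophage-like cells. Under anti-CD3L1 neutrophil-like cells were highest at 800.4 CPM (757 to 846), and the intervals of macrophage-like (635 CPM) and monocyte-like cells (624 CPM) overlapped. Dendritic cell classes followed, from 469.9 CPM in cDC2-like to 336 CPM in cDC1-like cells, and pDC-like cells had 117 CPM. NK-like cells were lowest in both libraries at 12.0 and 29.5 CPM.

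Among the C/EBP genes, each had its own distribution over the classes. Cebpa (ENSMUSG00000034957) was highest in macrophage-like cells in both libraries, at 64.1 CPM (56.9 to 71.9) and 53.4 CPM (51.0 to 55.8), and next in monocyte-like cells at 27.5 and 33.9 CPM. Cebpb (ENSMUSG00000056501) fell off in the order neutrophil-like, monocyte-like, macrophage-like in both libraries, with no overlap of intervals. Its levels in that order were 3189, 1664 and 891 CPM under control IgG and 1531, 707 and 455 CPM under anti-CD3L1. It was lowest in NK-like (58.9 CPM) and cDC1-like cells (59.1 CPM) of the anti-CD3L1 library, whose intervals overlapped. Cebpe (ENSMUSG00000052435) was scarce everywhere. Its highest levels were 13.2 CPM in monocyte-like cells under control IgG, and 15.4 CPM in cDC2-like and 14.9 CPM in monocyte-like cells under anti-CD3L1, the latter with overlapping intervals.

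Neutrophil-like cells thus carried less Cebpe than monocyte-like cells, 2.99 CPM (97 UMIs) against 13.2 CPM (127 UMIs) under control IgG. A small set of neutrophil-like cells with at least 2 of the secondary granule transcripts Ltf, Camp and Ngp, a mark of late precursors, was read apart after the data were seen. In the control IgG library 183 such cells had 8.99 CPM of Cebpe (16 UMIs), and the other 5305 cells had 2.64 CPM (81 UMIs). Only 5 such cells were found under anti-CD3L1, with 0 UMIs of Cebpe. The cut depends on depth, which was lower in neutrophil-like cells of that library.

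The interferon regulatory factors and Batf3 separated the dendritic cell classes. Irf8 (ENSMUSG00000041515) was highest in pDC-like cells at 1669 CPM (1601 to 1740), then in NK-like cells at 1444 CPM (1418 to 1470) and cDC1-like cells at 1300 CPM (1251 to 1350.1) of the anti-CD3L1 library, with no overlap of intervals. It reached 620.0 CPM in mature DC-like cells and only 141 CPM in cDC2-like cells. Among cDC2-like, mature DC-like and cDC1-like cells Irf4 (ENSMUSG00000021356) was ordered the other way, at 93.0 CPM (81.6 to 105), 57.5 CPM and 11.7 CPM (7.52 to 17.5). B-like cells had the most Irf4, 563 CPM (463 to 677), followed by pDC-like cells with 131 CPM. The pDC-like cells were thus the highest dendritic cell class for both Irf8 and Irf4. Batf3 (ENSMUSG00000026630) was highest in cDC1-like cells, 135 CPM (119 to 152), and next in mature DC-like cells, 55.9 CPM (45.9 to 67.5). ILC-like and B-like cells held 0 UMIs of Batf3, which allows up to 6.70 and 15.1 CPM with the 0 set to 3 counts and 8.24 and 18.5 CPM by the exact Poisson interval.

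Klf4 (ENSMUSG00000003032) and Maf (ENSMUSG00000055435) shared ILC-like, monocyte-like and macrophage-like cells as their 3 highest classes under anti-CD3L1. Klf4 was highest in ILC-like cells, 585 CPM (516 to 661), followed by monocyte-like cells with 342 CPM and macrophage-like cells with 287 CPM. For Maf the intervals of ILC-like (125 CPM, 94.5 to 162) and macrophage-like cells (124.5 CPM, 121 to 128) overlapped, and mature DC-like cells were lowest at 8.21 CPM. Under control IgG both genes were highest in macrophage-like cells among the classes of at least 50 cells, Klf4 at 263 CPM and Maf at 312 CPM. Below that minimum, 17 ILC-like cells of that library had 995 CPM of Klf4 (823 to 1193, 117 UMIs) and 145 CPM of Maf (17 UMIs). Its 3 cells with T cell markers had 542 CPM of Maf (14 UMIs). Under anti-CD3L1, 28 cells with fibroblast markers had 692 CPM of Klf4.

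**Figure D1:**
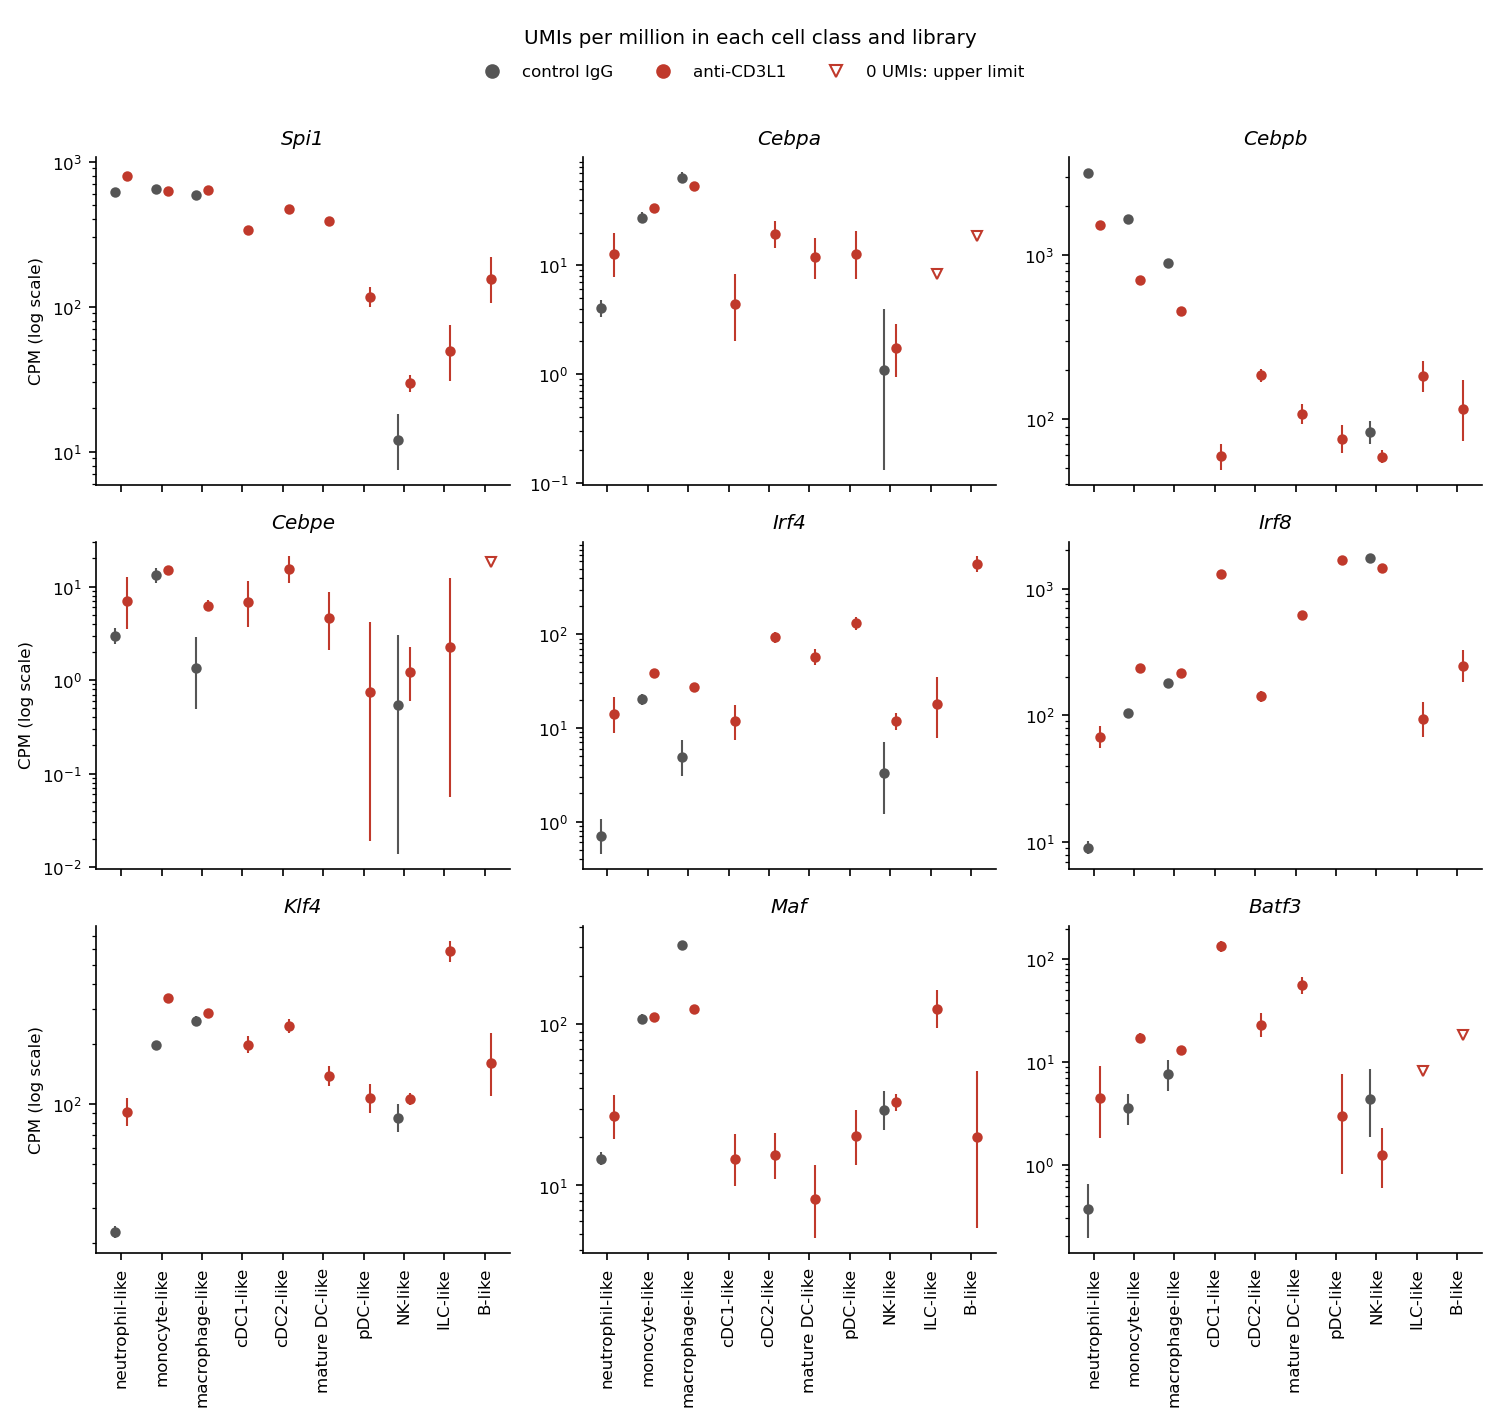
Level of each factor (CPM, log axis) in the classes with at least 50 cells, control IgG in grey and anti-CD3L1 in red, with exact Poisson 95% intervals and open triangles at the upper end of that interval where no UMI was seen. Cebpb lies lower in red than in grey in all 4 shared classes, and Maf separates the libraries in macrophage-like cells (312 against 124.5 CPM).

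The comparison of the libraries asked what anti-CD3L1 treatment does to tumor macrophages in hosts without T cells. In macrophage-like cells Maf was 2.51-fold lower under anti-CD3L1, while Irf4 was 5.56-fold and Cebpe 4.67-fold higher. Maf had 312 CPM (1404 UMIs) under control IgG and 124.5 CPM (4414 UMIs) under anti-CD3L1, a log2 ratio of −1.33 (exact binomial 95% interval −1.41 to −1.24). Irf4 had 4.89 CPM (22 UMIs) and 27.2 CPM (965 UMIs), a log2 ratio of 2.48 (1.87 to 3.16). Cebpe rested on 6 UMIs under control IgG and 221 under anti-CD3L1, 1.33 and 6.23 CPM, with a wide interval of the log2 ratio from 1.08 to 3.69. Cebpe met the minimum of 20 UMIs through the anti-CD3L1 library alone. Thus 2 of the 9 genes were at least 2-fold higher and 1 at least 2-fold lower, beside 7.33% and 4.7% of all 13917 genes with at least 20 UMIs. Cebpb came close to 2-fold, with 891 CPM against 455 CPM and a log2 ratio of −0.97 (−1.02 to −0.92). The remaining factors stayed within 2-fold. Spi1 had 589.8 and 635 CPM, Klf4 263 and 287 CPM, Irf8 179 and 215 CPM, Cebpa 64.1 and 53.4 CPM and Batf3 7.56 and 13.03 CPM. The median log2 ratio was 0.13 over the 9 genes and 0.03 over all genes tested.

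Markers of other cells moved with these values. In macrophage-like cells the 8 neutrophil markers summed to 828 CPM under control IgG and 143 CPM under anti-CD3L1. The monocyte markers summed to 642 and 880 CPM, the ILC markers to 140 and 370 CPM and the 6 cDC2 markers to 64.5 and 143 CPM. Monocyte-like cells of the control IgG library had 20.2 CPM of Irf4 and 13.2 CPM of Cebpe, more than its macrophage-like cells. Of the cDC2 markers, Cd209a had 0 UMIs in macrophage-like cells under control IgG and 14 UMIs under anti-CD3L1. With class totals of 4494993 and 35453005 UMIs, these counts are too low to tell the libraries apart. Leaving out cells with any UMI of Cd209a, Mgl2 or Flt3, a step chosen after the data were seen, kept 312 and 3164 cells and gave log2 ratios of 2.36 for Irf4, 2.003 for Cebpe and −1.36 for Maf. Mgl2 itself differed between the libraries (6 and 551 UMIs). The part of dendritic cell, monocyte or ILC transcripts in the differences was not tested. Reads of Gm15655, which overlaps Maf on the other strand in GENCODE M21, came to 3.56 and 2.14 CPM in macrophage-like cells, and whether counting used the strand is not stated in the sources used here. Tmem189, on the strand opposite Cebpb, had 138 and 166 CPM and so did not follow Cebpb downward.

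Because deeper cells show more genes, each cell was also thinned to 1000 UMIs. A UMI of Maf was then present in 22.7% of macrophage-like cells under control IgG and 11.5% under anti-CD3L1 (unthinned, 80.8% and 52.9%), against 0.606% of mature DC-like cells of the latter library, whose median was 11323.5 UMIs. For Irf4 the thinned shares were 0.621% and 2.43% (unthinned, 5.26% and 17.1%), beside 0.204% in neutrophil-like cells of the anti-CD3L1 library (median 2268 UMIs). For Cebpb they were 49.4% and 33.3% (unthinned, 94.7% and 89.6%), beside 8.72% and 5.62% in NK-like cells. The thinned shares left out 1 and 10 shallower macrophage-like cells.

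In monocyte-like cells Batf3 was 4.86-fold and Irf8 2.25-fold higher under anti-CD3L1, and Cebpb was 2.35-fold lower. Irf8 had 104 CPM (1004 UMIs) and 235 CPM (4632 UMIs), a log2 ratio of 1.17 (1.07 to 1.27). Batf3 had 3.53 CPM (34 UMIs) and 17.1 CPM (338 UMIs), a log2 ratio of 2.28 (1.77 to 2.83). Cebpb had 1664 and 707 CPM, a log2 ratio of −1.24 (−1.27 to −1.20). These 2 higher genes and 1 lower gene stand beside 12.2% and 2.34% of 12856 genes. The median of all genes in this class lay at a log2 ratio of 0.26, and relative to it Irf8 stood at 0.91, below 2-fold, and Batf3 at 2.02. Irf4 (20.2 and 38.6 CPM) and Klf4 (199 and 342 CPM) were higher by less than 2-fold, and Maf (108 and 111 CPM), Spi1 (643 and 624 CPM) and Cebpe (13.2 and 14.9 CPM) had intervals of the ratio that reached 0 on the log2 scale. Cebpa had 27.5 and 33.9 CPM. In these cells the 8 macrophage markers summed to 1695 and 3631 CPM and the 8 neutrophil markers to 3132 and 312 CPM. The cDC2 markers summed to 31.1 and 148 CPM and the cDC1 markers to 51.7 and 98.3 CPM. The part of all these markers in the differences was not tested.

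In neutrophil-like cells the 8 genes with at least 20 UMIs split into 5 that were at least 2-fold higher under anti-CD3L1, 1 that was lower and 2 within 2-fold. With equal weight per cell 3 were higher and 0 lower, as Cebpb stood at a log2 ratio of −0.92 and Cebpe at 0.38, and Irf4 (3.79) fell below the minimum of 20 UMIs. The share of all genes at that weighting is not given here. The 9th, Batf3, had 12 and 7 UMIs. Irf8 had 9.09 CPM (295 UMIs) under control IgG and 67.9 CPM (106 UMIs) under anti-CD3L1, a log2 ratio of 2.90 (2.57 to 3.22). Klf4 had 22.7 and 91.6 CPM (2.01, 1.74 to 2.27), and Irf4 had 0.71 and 14.1 CPM on 23 and 22 UMIs (4.31, 3.40 to 5.22). Cebpa, with 131 and 20 UMIs, stood at 4.04 and 12.8 CPM, and Cebpe, with 97 and 11 UMIs, at 2.99 and 7.04 CPM. Cebpb had 3189 and 1531 CPM, a log2 ratio of −1.06 (−1.12 to −1.0002), and Spi1 had 613 and 800.4 CPM. Maf was within 2-fold at 14.7 and 26.9 CPM.

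The background of this comparison was high, since 29.6% of 11741 genes were at least 2-fold higher and 3.58% at least 2-fold lower, and the median of all genes lay at 0.59. Relative to that median Irf4 stood at 3.73, Irf8 at 2.31, Klf4 at 1.42, Cebpa at 1.08, Cebpe at 0.65, Spi1 at −0.20 and Cebpb at −1.65. Beside these values, the 8 macrophage markers summed to 310 CPM in neutrophil-like cells under control IgG and 1315 CPM under anti-CD3L1, none of them at 0 in either. Barcodes of 10 to 100 UMIs, taken as droplets with free RNA, held 87.5 and 313.5 CPM of Irf8, 77.8 and 215 CPM of Klf4 and 4.56 and 26.2 CPM of Irf4. The largest share of free RNA that C1qa, C1qb, C1qc and Apoe together allowed was 5.40% and 9.85%. Subtracting free RNA at that share left log2 ratios of 3.15 for Irf8, 1.99 for Klf4 and 4.71 for Irf4. These ratios do not show how much of each level was removed, and the part of free RNA in the levels is not given here. Thinned to 1000 UMIs, neutrophil-like cells with a UMI of Irf8 made up 0.479% and 3.46%, the lowest shares of Irf8 among the classes of their libraries. The thinned shares of Irf4 rested on 2 and 1 cells, 0.0369% and 0.204%, and their intervals overlapped (unthinned, 0.328% and 2.37%). The interval of the Irf4 ratio counts UMIs, not cells.

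The same genes were also read in NK-like cells, which lie outside the myeloid lineage. Of 6 genes with at least 20 UMIs, Spi1 (12.0 and 29.5 CPM) and Irf4 (3.26 and 11.7 CPM, on 6 and 95 UMIs) were at least 2-fold higher, beside 8.14% of 11228 genes, and none was 2-fold lower, beside 2.2%. With NK-like cells that carried markers of another class left out, Spi1 stood at a log2 ratio of 0.94. In NK-like cells the 8 macrophage markers summed to 123 and 355 CPM and the 8 neutrophil markers to 847 and 50.1 CPM. Their part in the differences of this class was not tested. Irf8, abundant in these cells, had 1728 and 1444 CPM, a log2 ratio of −0.26 (−0.32 to −0.20). Cebpb had 83.3 and 58.9 CPM, a log2 ratio of −0.50 (−0.76 to −0.23), so it was lower in all 4 classes compared. In barcodes of 10 to 100 UMIs Cebpb also differed, with 1637 CPM under control IgG and 559 CPM under anti-CD3L1. After subtraction of free RNA its log2 ratios were −1.003 in neutrophil-like, −1.19 in monocyte-like, −0.97 in macrophage-like and −0.39 in NK-like cells.

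**Figure D2:**
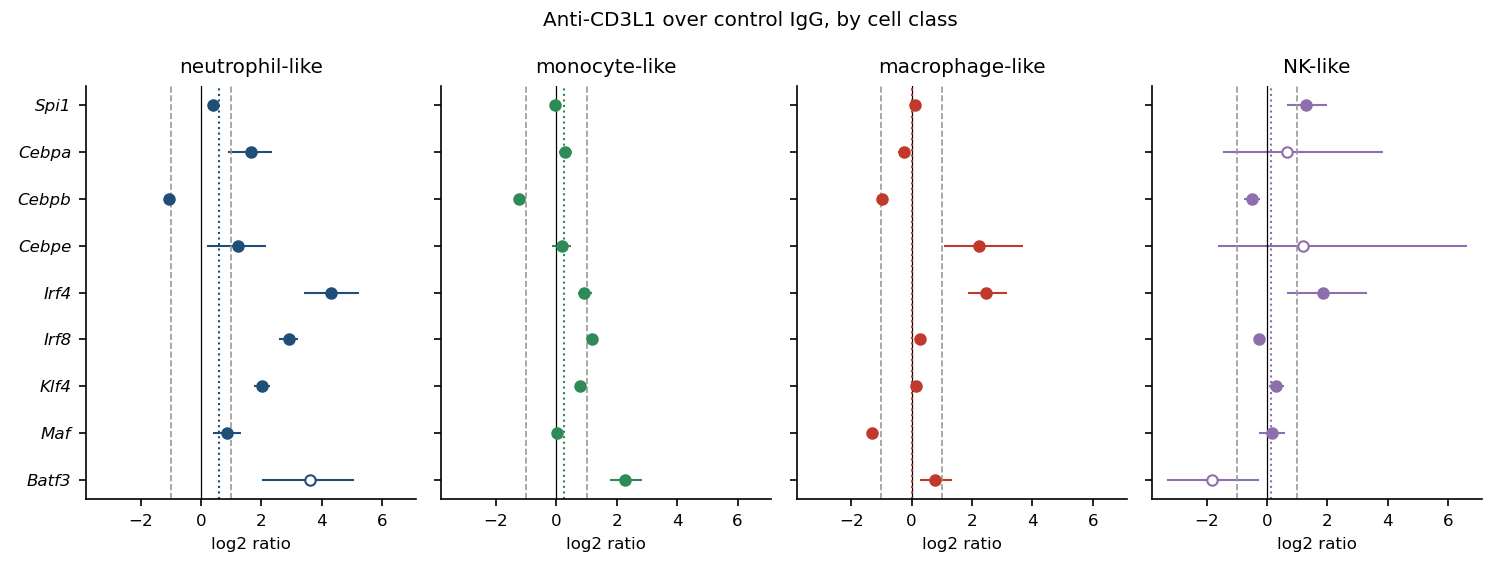
Log2 ratio between the libraries (anti-CD3L1 relative to control IgG) for each factor in 4 cell classes, with exact binomial 95% intervals that cover counting error. Dashed lines mark 2-fold, dotted lines the median of all genes tested in that class, and open circles genes with fewer than 20 UMIs. Cebpb lies left of 0 in all 4 panels, and Maf lies past the left 2-fold line in macrophage-like cells only among these 4 classes.

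For cDC2-like cells the control IgG library held 9 cells, too few for a comparison, and the levels are set side by side. Irf4 had 16 UMIs (127 CPM) under control IgG and 241 UMIs (93.0 CPM) under anti-CD3L1. Irf8 had 6 UMIs (47.5 CPM) and 366 UMIs (141 CPM). Klf4 had 31 UMIs (245 CPM) and 640 UMIs (247 CPM).

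Genes linked to 3 of the factors were read as lists fixed by name. These lists, like those read further below, were chosen with earlier results of these data known. Their counts are therefore a description. The list named for IRF4 holds 7 genes of alternative activation, of which 6 were at least 2-fold higher and none lower in macrophage-like cells, beside 7.33% and 4.7% of all genes, with a median log2 ratio of 1.42 against 0.03 for all genes. Retnla, a secreted protein of alternatively activated macrophages, had 1 UMI in the control IgG library and 1431 under anti-CD3L1 (0.22 and 40.4 CPM), a log2 ratio with an interval from 5.02 to 12.81. Mgl2, a lectin, had 6 and 551 UMIs (1.33 and 15.5 CPM). Ccl17, a chemokine, had 0 and 189 UMIs, 2.998 higher on the log2 scale with the 0 set to 3 UMIs, and the exact binomial interval began at 2.69. Retnla, Mgl2 and Ccl17 met the minimum of 20 UMIs through the anti-CD3L1 library alone, so their place in the count is not independent of it. The seventh gene, Arg1, had 69.0 and 64.2 CPM. Mgl2, Ccl22 and Chil3 are also markers of dendritic cell or monocyte classes here, so their levels bear on how cells were placed. In monocyte-like cells 4 of the 7 were higher, and Arg1 (39.5 and 18.5 CPM) and Chil3 (96.3 and 41.3 CPM) were lower, beside 12.2% and 2.34% of all genes. In neutrophil-like cells 4 of the 6 genes tested were higher, beside 29.6% of all genes, with a median of 4.02 against 0.59. They include Retnla on 7 and 76 UMIs and Ccl17 on 3 and 36, which also met the minimum through the anti-CD3L1 library. Arg1, on 978 and 0 UMIs, was lower there, beside 3.58%.

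The list named for C/EBPβ and IL-6 type inflammation holds 7 genes. In monocyte-like cells 5 were at least 2-fold lower and none higher, beside 2.34% and 12.2% of all genes, with a median log2 ratio of −1.10 against 0.26 for all genes. In neutrophil-like cells 5 were lower and none higher, beside 3.58% and 29.6%, with a median of −3.30 against 0.59. In macrophage-like cells 3 were lower and 1 higher, beside 4.7% and 7.33%, with a median of −0.63 against 0.03. In NK-like cells, outside the myeloid lineage, 2 of the 4 genes tested were lower and 1 higher, beside 2.2% and 8.14%. The median there was −3.09 against 0.14. Saa3, an acute-phase apolipoprotein, had 7363 and 88.7 CPM in monocyte-like cells, 6098 and 55.7 CPM in neutrophil-like cells and 1786 and 19.3 CPM in macrophage-like cells. Nos2, the inducible nitric oxide synthase, had 198 and 7.04 CPM in neutrophil-like cells. The 3 lower genes in macrophage-like cells were Saa3, Lcn2 (52.7 and 1.19 CPM) and Nos2 (3.78 and 1.04 CPM), and the higher gene was Il6, on 10 and 205 UMIs. Lcn2 is also a neutrophil granule gene, and the neutrophil marker sums given above fell with it.

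The list of c-Maf associated macrophage genes holds 9 genes, of which C1qa, C1qb, C1qc and Mrc1 are markers of the macrophage-like class and so were fixed in part by the gate. Among the 5 others in macrophage-like cells, 1 was at least 2-fold higher and none lower, beside 7.33% and 4.7% of all genes, with a median log2 ratio of 0.39. Over all 9 the count was the same, with a median of 0.15. Folr2, a folate receptor of resident-type macrophages, had 68.3 and 139 CPM. Lyve1 had 6.45 and 8.88 CPM, Cd163 4.23 and 5.56 CPM and C1qb 2395 and 2823 CPM. Il10, which c-Maf is known to induce, had 318 and 308 CPM, and Mrc1 had 327 and 294 CPM. Of the 7 genes tested in monocyte-like cells 6 were higher and none lower, beside 12.2% and 2.34% of all genes, and the same counts were found in neutrophil-like cells, beside 29.6% and 3.58%. Of the 6 genes tested in NK-like cells 4 were higher and none lower, beside 8.14% and 2.2%, with a median of 2.21 against 0.14. The macrophage marker sums given above, which include C1qa, C1qb, C1qc and Mrc1, were higher in all of these classes too. In monocyte-like cells the gate allowed at most 1 C1q gene, which bounded the levels of C1qa, C1qb and C1qc there.

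**Figure D3:**
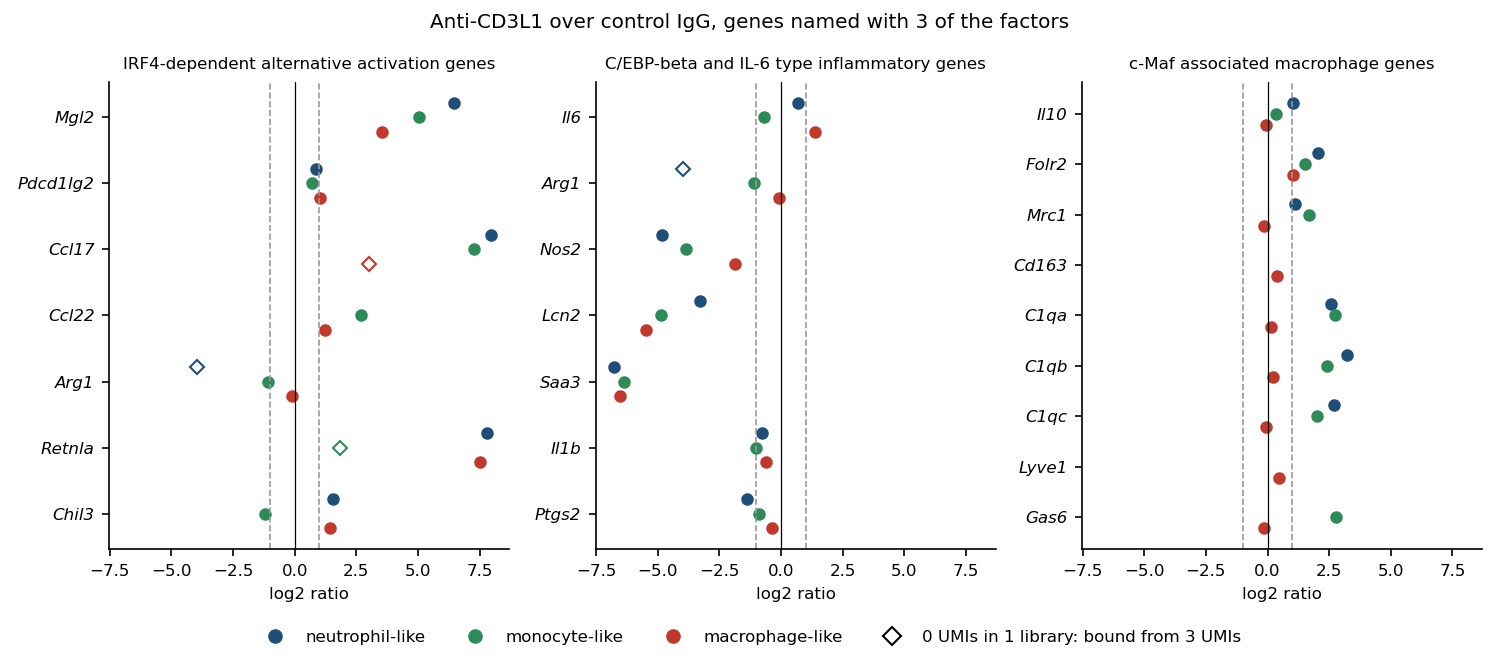
Log2 ratios between the libraries (anti-CD3L1 relative to control IgG) for the genes of 3 lists with at least 20 UMIs, in neutrophil-like (blue), monocyte-like (green) and macrophage-like cells (red). Dashed lines mark 2-fold and open diamonds are bounds where 1 library held no UMI. Saa3 lies between −6.77 and −6.38 in all 3 classes, and the c-Maf list in red lies between −0.15 and 1.02.

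Close relatives and partners of the factors were read in the same way. Of 18 relatives tested in macrophage-like cells, none was 2-fold higher and 3 were lower, beside 7.33% and 4.7% of all genes, with a median of −0.22 against 0.03. They were Cebpd (79.4 and 19.9 CPM), Klf2 (517 and 232 CPM) and Spic (42.7 and 19.9 CPM). Of 15 partner factors, none was higher and 2 were lower, the immediate early factors Jun (1513 and 677 CPM) and Nr4a1 (204 and 100.4 CPM), with a median of −0.15. In monocyte-like cells 1 of 19 relatives was higher, beside 12.2% of all genes. It was Spib, on 1 and 21 UMIs, which met the minimum through the anti-CD3L1 library alone. Beside the same share 3 of 15 partners were higher, Pparg (16.6 and 54.6 CPM), Egr2 (15.1 and 46.2 CPM) and Zbtb46 (2.07 and 5.47 CPM). In neutrophil-like cells 5 of 18 relatives and 5 of 14 partners were higher and none lower, beside 29.6% and 3.58% of all genes.

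Of 7 receptor genes known to depend on PU.1 and C/EBP factors, 2 were at least 2-fold lower in monocyte-like cells, the integrin Itgam (427 and 190.4 CPM) and the endotoxin receptor Cd14 (1881 and 875 CPM), beside 2.34% of all genes. In macrophage-like cells 1 was lower, Itgam (283 and 139 CPM), beside 4.7%. In neutrophil-like cells Fcgr1 was higher (18.4 and 69.8 CPM) and Cd14 lower (3368 and 1005 CPM), beside 29.6% and 3.58%. Csf1r, the receptor that keeps macrophages alive, had 378 and 354 CPM in macrophage-like cells, and Csf3r, the neutrophil growth factor receptor, had 1153 and 1452 CPM in neutrophil-like cells. Of 7 granule genes tested in neutrophil-like cells, Ltf (28.8 and 146 CPM), Camp (24.9 and 57.6 CPM) and Prtn3 (1.66 and 4.48 CPM) were higher, and Lcn2 (8683 and 880 CPM) was lower, beside 29.6% and 3.58% of all genes. Prtn3 rested on 54 and 7 UMIs, with an interval of the log2 ratio from 0.05 to 2.57. Cells with at least 2 of Ltf, Camp and Ngp made up 3.33% of the class under control IgG and 0.986% under anti-CD3L1. These shares depend on depth, at class medians of 4651 and 2268 UMIs, and were not read at equal depth. The median of the 7 was 0.05 against 0.59 for all genes. In neutrophil-like cells Elane was at 0 UMIs in both libraries, and Mpo had 7 and 1 UMIs. Monocyte-like cells had 10 and 1 UMIs of Elane, 26 and 35 of Mpo and 178 and 265 of Prtn3. Spib and Tcf4, factors of plasmacytoid dendritic cells, were highest in pDC-like cells at 539 and 2454 CPM, and Zbtb46, a factor of conventional dendritic cells, had 183 CPM in mature DC-like and 104 CPM in cDC1-like cells but 3.27 CPM in macrophage-like cells.

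Within 2 classes the levels were also read in subsets chosen after the data were seen. The cuts are in UMIs and so depend on depth, and cells between the cuts were in neither subset. The part of class makeup in the ratios was not tested. Macrophage-like cells with at least 2 UMIs of Folr2 numbered 55 and 885, at medians of 15100 and 11440 UMIs. Those with none numbered 216 and 1976, at medians of 13248 and 9389.5 UMIs. Maf was lower under anti-CD3L1 in both subsets, 494 and 164 CPM in the former (log2 ratio −1.59, −1.74 to −1.43) and 275 and 102 CPM in the latter (−1.43, −1.54 to −1.30). Cells with at least 2 UMIs of Folr2 made up 17.0% and 26.2% of the class, and within each library they had more Maf than those with none. Irf4 was higher in both subsets, with 8.22 and 25.2 CPM (7 and 265 UMIs) and with 3.45 and 27.5 CPM (10 and 532 UMIs). Cebpb had 908 and 407 CPM in the former and 916 and 489 CPM in the latter.

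Monocyte-like cells were split by H2-Ab1, an MHC class II gene that rises as monocytes mature. With at least 2 UMIs of it there were 216 and 1552 cells, at medians of 11679.5 and 8266.5 UMIs. With none there were 485 and 557 cells, at medians of 12200 and 7271 UMIs. Irf8 was higher in both subsets, with log2 ratios of 0.88 (0.72 to 1.05) and 1.26 (1.11 to 1.41), and ended at 235 and 232 CPM under anti-CD3L1. Batf3 gave 1.49 (0.76 to 2.32) and 2.70 (1.90 to 3.58), and Klf4 gave 0.39 (0.27 to 0.51) and 1.16 (1.05 to 1.27). Cebpb was lower to a like degree in both, −1.15 (−1.21 to −1.10) and −1.13 (−1.19 to −1.08). Maf had 115 and 99.9 CPM with H2-Ab1 and 103 and 143 CPM without it.

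**Figure D4:**
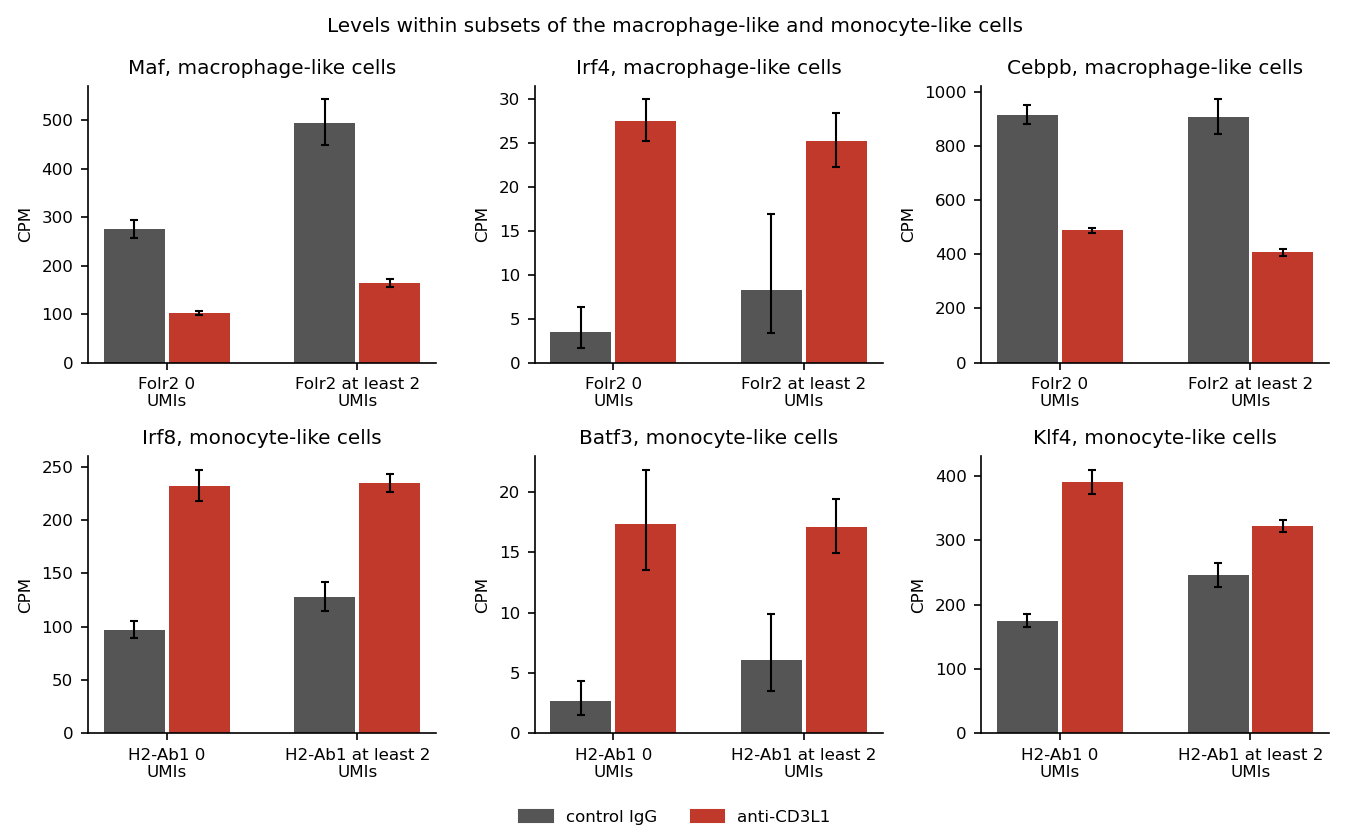
Levels (CPM, bars from 0, exact Poisson 95% intervals) of Maf, Irf4 and Cebpb in macrophage-like cells split by Folr2 and of Irf8, Batf3 and Klf4 in monocyte-like cells split by H2-Ab1, control IgG in grey and anti-CD3L1 in red. Maf and Cebpb are lower in red in both Folr2 subsets, and Irf8 in red is 232 and 235 CPM in both H2-Ab1 subsets.

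The distributions of the factors were set against those of all genes that reached 50 CPM, over the 14 sums of class and library with at least 50 cells. These points share libraries and depth, so Pearson's r of log2(CPM + 10) is a description. Among the factors themselves, Cebpb and Irf8 were the most opposed pair (r = −0.85), and Cebpb and Spi1 (0.69) and Cebpa and Spi1 (0.68) the most alike. Cebpb was most like Clec4e (0.977), a receptor for fungal and dead-cell ligands, then Sqor, C5ar1, Klra2 and Gpr84. Cebpa was most like Lgmn (0.969), a lysosomal protease, then Ctsa, Plxnb2, Arl8a and Tcirg1. Maf was most like Stab1 (0.912), a scavenger receptor, then Glul, Srgap2, Ccl12 and Itm2b. Spi1 was most like Marcks (0.949), with Csf2ra, a growth factor receptor chain, among the next genes, and Batf3 was most like Tspan33 (0.941). The best matches of the others were Drg1 for Irf8 (0.954), Inpp5f for Irf4 (0.928), Sfmbt1 for Klf4 (0.922) and D8Ertd738e for Cebpe (0.908). Cebpe itself reached at most 15.4 CPM, below the 50 CPM asked of the compared genes and near the added 10.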

How the data were processed

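The deposited UMI counts cover all barcodes. The submitters' notes name Cell Ranger 7.1.0, Seurat 5.1.0 and GRCm39. The authors' table of differential genes holds their own fold changes and p-values and was not used. Barcodes with at least 500 UMIs, more than 200 and fewer than 6000 genes and under 5% mitochondrial UMIs were kept. The markers of 14 cell classes were fixed, but the gates were set after the data were examined, and the 9 genes and the lists were chosen with earlier results of these data known. Neutrophil-like and macrophage-like cells needed 5 of 8 markers, macrophage-like cells also all 3 C1q genes. Monocyte-like cells needed 3 of 6 with Ly6c2 and at most 1 C1q gene. Dendritic cell and ILC-like classes needed 3 with a defining gene, and NK-like, B-like and the remaining classes any 3. No doublet caller was run, and cells that met several gates were left out, except that a dendritic cell gate took precedence over the monocyte gate. UMIs were summed per class and library where at least 50 cells were present, since cells are not replicates. Intervals at 95% were exact Poisson for CPM and exact binomial for shares and for ratios, and a count of 0 was bounded with 3 counts. Genes with at least 20 UMIs over both libraries were compared, so a gene could pass through 1 library alone. A gene was counted as higher or lower past 2-fold. Named genes were the 9 factors, relatives fixed by name, up to 4 members of each list with the largest ratios and the 5 genes most like each factor, and Arg1, Il10, Mrc1, Csf1r and Csf3r were added with their values known. One of the relatives is not reported here by name. The cell filters, gate, weighting, centring, fold, minimum count and free RNA were varied in turn. Only the ratio and the 2-fold call were tested on simulated counts. Those were Poisson sums per class without spread between cells or tumors, so they do not test the other steps. Python 3.11.15, numpy 2.4.6, scipy 1.17.1, pandas 2.3.3 and matplotlib 3.10.9 were used.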

Additional observations from a re-analysis of the deposited data

Results flagged for a closer look

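Among genes with at least 20 UMIs in the classes compared, Cebpa, Irf8 and Maf had counting intervals above 0 in at least 1 class and below 0 in another. The differences between classes were not tested. Cebpa stood at a log2 ratio of 1.67 in neutrophil-like cells, on 131 and 20 UMIs, at 0.30 in monocyte-like cells and at −0.26 in macrophage-like cells. Irf8 stood at 2.90 in neutrophil-like, 1.17 in monocyte-like and 0.26 in macrophage-like cells against −0.26 in NK-like cells. Maf stood at 0.87 in neutrophil-like cells against −1.33 in macrophage-like cells. In neutrophil-like cells the median of all genes was 0.59, and relative to it Maf stood at 0.29. Each class is 1 library per group, so the spread between tumors is not known.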

How the results depend on the processing

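With 1 library per group no replicate could be left out. No paired analysis was possible because each group is 1 library. The comparison in cDC2-like cells was not run, since the control IgG library held 9 such cells. The count of factors past 2-fold moved by over 1.5 times as follows. With equal weight per cell it was 3 higher and 0 lower in neutrophil-like cells and 1 higher in NK-like cells. With ratios centred on the median of all genes, 1 was higher in monocyte-like cells, Batf3. At 1.5-fold, 4 were higher in monocyte-like cells and 2 lower in macrophage-like cells. In NK-like cells 1 was higher without cells of a second class, and 1 was lower with the stricter gate or with no minimum beyond 1 UMI in each library. All other counts stayed within 1.5 times. Shares of all genes are given only for the reported settings. The counts at changed settings have no such share beside them and describe the processing alone. Of 32 log2 ratios, all lay within the counting interval of the reported value with at least 1000 UMIs, under 10% mitochondrial UMIs, more than 500 genes, or second-class cells left out, 25 with the stricter gate, 19 with centring, 29 with equal weight and 30 with free RNA subtracted. None past 2-fold changed sign. The highest class changed for Maf under anti-CD3L1 (macrophage-like by thinning or the stricter gate), for Cebpe (monocyte-like by thinning or subtraction) and for Batf3 under control IgG (NK-like by thinning). Depth limits Irf4, Cebpe and Batf3, with 6 to 34 UMIs in macrophage-like cells under control IgG.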
